A study of Mus musculus with 2 samples.

Results

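The miR-30 family of the mouse adrenal gland was described from its 6 hairpin genes, Mir30a, Mir30b, Mir30c-1, Mir30c-2, Mir30d and Mir30e. They were picked by symbol from the 2202 miRNA genes in the tables, by a rule that uses no counts of theirs, though earlier results of these data were known. MicroRNA sequencing had been done on total RNA, with a size range below 30 stated in the labels, from whole adrenal glands of female B6CASTF1/J mice aged 2 months, a first-generation hybrid strain. There was 1 group with 2 samples, named replicate 1 and replicate 2, and no treatment or transgene was labelled. The tissue descriptions number the females differently, yet a single donor label is given for both. The standard deviation (SD) over n = 2, and every p, therefore measures only how these samples differ, which may be technical.

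MicroRNAs are cut from a hairpin as a 5p and a 3p arm, and an arm guides repression of messenger RNAs through its seed, bases 2 to 8 from its 5′ end. The miR-30 family is abundant in kidney, lung and heart, and is known to repress the matrix growth factor Ctgf, the transcription factor Snai1 and the autophagy gene Becn1. Its hairpins lie in the mouse genome as pairs at 3 loci.

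Sequences from RefSeq (GRCm38.p6) were matched by symbol for 4 of the 6 members, Mir30a, Mir30c-1, Mir30c-2 and Mir30e. The 5p arms are shown because they carry the family's common seed, and the 3p arms because they separate its subgroups. Seeds are in capitals.
mmu-miR-30a-5p: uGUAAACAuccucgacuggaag
mmu-miR-30e-5p: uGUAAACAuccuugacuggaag
mmu-miR-30c-5p: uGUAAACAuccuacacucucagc
mmu-miR-30a-3p: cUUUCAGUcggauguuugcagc
mmu-miR-30e-3p: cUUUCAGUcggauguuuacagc
mmu-miR-30c-1-3p: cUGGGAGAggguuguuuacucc
mmu-miR-30c-2-3p: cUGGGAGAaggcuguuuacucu

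The 3 distinct 5p sequences share the seed GUAAACA. The 3p arms fall into a Mir30a and Mir30e subgroup with the seed UUUCAGU and a Mir30c subgroup with the seed UGGGAGA. Counted from 1 at the 5′ end, miR-30a-5p and miR-30e-5p differ by the single substitution C13U, and their 3p arms by G18A. miR-30c-1-3p and miR-30c-2-3p differ by G9A, U12C and C22U. In contrast, miR-30c-5p is 1 sequence made by 2 genes: of 1005 hairpins in the RefSeq table it lies whole in Mir30c-1 and Mir30c-2. Each of the other 6 arms lies whole in 1 hairpin, also over its first 18 bases.

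The hairpins of Mir30c-1 and Mir30c-2 are shown because their common stretch, in capitals, decides which reads can be assigned to either gene.
Mir30c-1: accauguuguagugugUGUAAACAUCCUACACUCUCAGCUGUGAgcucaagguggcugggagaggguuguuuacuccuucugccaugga
Mir30c-2: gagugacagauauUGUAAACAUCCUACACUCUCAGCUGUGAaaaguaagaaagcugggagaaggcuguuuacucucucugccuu

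The common stretch is 28 bases long and holds the whole 5p arm, so a read inside it matches both hairpins. The tables counted per hairpin, not per arm, and kept reads aligned to several places in a class of their own, at 2673681 reads in replicate 1 and 2193599 in replicate 2. How many of these came from miR-30c-5p was not tested. The counts of Mir30c-1 and Mir30c-2 below are the reads that the authors' counting assigned to 1 gene. The longest stretch common to Mir30a and Mir30e was 18 bases, and neither shared a longer one with another hairpin of the RefSeq table.

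Counts on the strand of the gene totalled 2839732 for replicate 1 and 2280028 for replicate 2, and values below are counts scaled to a total of 1000000 (CPM). The 2 libraries stand apart in RNA of other cell types. The 9 skeletal and heart muscle miRNA genes summed to 953 CPM in replicate 1 and 4.39 CPM in replicate 2, led by Mir206. Only 3 of them had enough counts to be tested, and these passed as higher in replicate 1 by the binomial test with a 2-fold rule described further on. Mir133a-1, Mir133a-2 and Mir133b had 0 assigned counts in both libraries. Since the list sums hold assigned reads alone, a 0 need not mean absence, and the muscle sum may be too low. Whether reads of the muscle genes were left unassigned was not tested. The 3 erythroid genes summed to 643 and 14488 CPM, led by Mir451a. Replicate 2 was higher by the same test for Mir451a and Mir144, while Mir486 did not pass, at 65.9 and 58.3 CPM. The 4 leukocyte genes summed to 1331 and 1051 CPM, led by Mir150. Of these, Mir223, a myeloid miRNA, passed as higher in replicate 1, at 133 and 17.5 CPM, and Mir150, Mir155 and Mir142 did not pass. The 4 neuroendocrine genes, which mark the catecholamine-producing medulla, summed to 42776 and 40150 CPM and were led by Mir375. In whole tissue, fewer cells of a type and less RNA per cell cannot be told apart. The tables hold no messenger RNA, so markers of the steroid-producing cortex could not be checked.

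In both libraries 3 hairpins held nearly all assigned miR-30 reads: Mir30d, Mir30a and Mir30e made up 96.4% of the family in replicate 1 and 95.5% in replicate 2. The family as a whole had 60672 counts in replicate 1, or 2.14% of the library (95% Clopper-Pearson interval 2.12 to 2.15), and 55422 in replicate 2, or 2.43% (2.41 to 2.45). These intervals cover counting error only. All 6 hairpins were detected, meaning at least 10 counts in each library, as were 342 of the 2202 genes. Levels in CPM are given first, and genes are then ordered on CPM per 100 bases of hairpin, since the hairpins are 71 to 96 bases long. The arms shown above are 22 or 23 bases long, so reads need not scale with hairpin length.

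Mir30d (ENSMUSG00000065437.1; mm10, chromosome 15, 68341208 to 68341289, minus strand) was the most abundant member. It had 25941 counts or 9135 CPM in replicate 1 and 25098 counts or 11008 CPM in replicate 2, a mean of 10071 ± 1324 CPM. That made it the gene of rank 23 in each library. Its 82 bases are exonic in the lincRNA Gm20732, and 9 of them in the unclassified transcript Gm37296. Mir30d held 44.0% ± 1.79 of the family's counts.

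Mir30a (ENSMUSG00000065405.3; chromosome 1, 23272269 to 23272339, plus strand) overlaps no other annotated transcript. It had 20331 counts or 7159 CPM in replicate 1 and 15948 counts or 6995 CPM in replicate 2. Its mean was 7077 ± 117 CPM, and its coefficient of variation, 1.65%, was the lowest of the 6 members. Mir30a held 31.1% ± 3.35 of the family's counts.

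Mir30e (ENSMUSG00000065409.1; chromosome 4, 120772606 to 120772697, minus strand) lies in an intron of all 6 overlapping transcripts of Nfyc, which encodes a subunit of the CCAAT-binding factor NF-Y. It had 12207 counts or 4299 CPM in replicate 1 and 11906 counts or 5222 CPM in replicate 2, a mean of 4760.3 ± 653 CPM. Mir30e held 20.8% ± 0.964 of the family's counts.

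The other 3 hairpins were lower by an order of magnitude. Mir30c-2 (ENSMUSG00000065567.1; chromosome 1, 23291701 to 23291784, plus strand), exonic over its 84 bases in the lincRNA Gm27028, had 1157 and 1097 counts in replicates 1 and 2, or 407 and 481 CPM. Mir30c-1 (ENSMUSG00000065490.1; chromosome 4, 120769534 to 120769622, minus strand), also intronic in Nfyc, had 626 and 871 counts, or 220.4 and 382 CPM. Mir30b (ENSMUSG00000065476.2; chromosome 15, 68337415 to 68337510, minus strand), with 16 bases in an exon of the noncoding gene Gm26621, had 410 and 502 counts, or 144 and 220.2 CPM. Each of the 3 was lower in replicate 1 than in replicate 2.

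**Figure D1:**
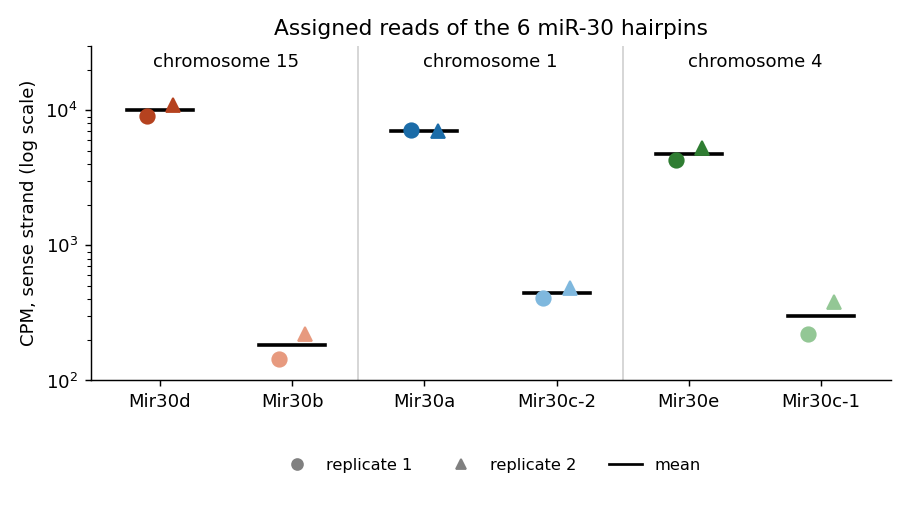
CPM on the sense strand (y axis, log scale) of the 6 hairpins (x axis), grouped by locus; circles are replicate 1, triangles replicate 2 and bars the mean of both. At each locus 1 hairpin sits at 4299 CPM or above and its neighbour at 481 CPM or below in both libraries.

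Per 100 bases of hairpin the order was Mir30d (12282 ± 1615 CPM), Mir30a (9968 ± 164 CPM), Mir30e (5174 ± 710 CPM), Mir30c-2 (529 ± 62.0 CPM), Mir30c-1 (338 ± 128 CPM) and Mir30b (190 ± 55.8 CPM). Both libraries gave this order, also in CPM without the division by length. Among the first 4 genes each neighbour in the order differed by more than the sum of the SDs. Mir30c-2 and Mir30c-1 differed by 190 CPM per 100 bases, which equals the sum of their SDs, 190, and without the division by length their difference of 143 CPM was below the sum of 166 CPM. Mir30c-1 and Mir30b could not be separated, with a difference of 149 against 184 CPM per 100 bases. From the highest to the lowest member, Mir30d against Mir30b, the ratio of levels per length was 74.1 in replicate 1 and 58.5 in replicate 2.

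**Figure D2:**
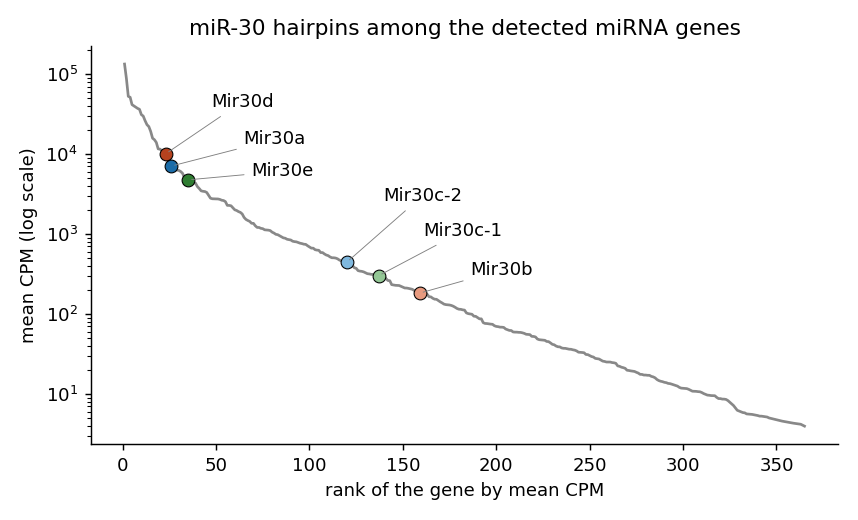
Mean CPM (y axis, log scale) against the rank of the gene (x axis) among all 2202 genes, drawn for the 342 detected in both libraries as a grey line, with the miR-30 hairpins as points. Mir30d, Mir30a and Mir30e lie at ranks 23, 26 and 35, and Mir30c-2, Mir30c-1 and Mir30b at ranks 120, 137 and 159.

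The genes with levels most like each member were found by the Euclidean distance in log2(CPM + 1) over the 2 libraries, a likeness of level over 2 samples and nothing more. Mir30d was nearest to Mir151 (distance 0.0613), at 9399 and 11361 CPM. Mir30a was nearest to Mir191 (0.213), Mir30e to Mir379 of the imprinted Dlk1-Dio3 region (0.193), and Mir30c-2 to Mir181b-2 (0.234). Mir30c-1 was nearest to Mir500 (0.285) and Mir30b to Mirlet7a-2 (0.165). In the order of mean CPM, Mir30d stood between Mir151 (10380 ± 1387 CPM) and Mir322 (9050 ± 1931 CPM), both within the SDs. Mir30a stood between Mir29a (7276 ± 954 CPM) and Mir451a (7013 ± 9254 CPM), and Mir30e between Mir98 (4965 ± 318 CPM) and Mir541 (4719 ± 1690 CPM), none separated from its miR-30 neighbour by more than the SDs. The lower members stood between Mir183 and Mir188 (Mir30c-2), Mir338 and Mir542 (Mir30c-1) and Mir700 and Mir7-1 (Mir30b).

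The seed GUAAACA is also carried by miR-384-5p, outside the family. Its hairpin gene Mir384 had 34 and 16 counts, or 11.97 and 7.02 CPM, below every miR-30 hairpin in both libraries. Mir6958, whose 5p arm shares the UGGGAGA seed of the Mir30c 3p arms, had 1 and 0 counts, and a count of 0 in replicate 2 allows up to 3 counts or 1.32 CPM. Reads of a hairpin cannot be divided between its arms here, so these values do not give the amount of a seed.

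The 3 loci were then compared, since the hairpins of a pair may be cut from 1 transcript. The question was how evenly a locus divides its assigned reads. Mir30d held 98.4% of the reads of its locus in replicate 1 (95% Clopper-Pearson interval 98.3 to 98.6) and 98.04% in replicate 2 (97.9 to 98.2), with Mir30b 3697 bases away. Mir30a held 94.6% (94.3 to 94.9) and 93.6% (93.2 to 93.9), with Mir30c-2 19361 bases away. Mir30e held 95.1% (94.7 to 95.5) and 93.2% (92.7 to 93.6), with Mir30c-1 2983 bases away. At each locus the share of the larger hairpin was lower in replicate 2, by 0.405 to 1.94 percentage points, and the counting intervals of the 2 libraries did not overlap. Such intervals also lay apart in 51.3% of 115 other pairs of neighbouring miRNA genes, whose share moved by a median of 3.59 percentage points, more than at any miR-30 locus. The share was lower in replicate 2 in 35.7% of the other pairs. For shares as high as those of miR-30, a change in points stays small even when the ratio of the hairpins moves. The median therefore does not show steadier miR-30 loci. From replicate 1 to replicate 2 that ratio fell from 63.27 to 49.996 for Mir30d to Mir30b. It fell from 17.57 to 14.54 for Mir30a to Mir30c-2 and from 19.5 to 13.67 for Mir30e to Mir30c-1. Summed over the pair, the levels were 10254 ± 1378 CPM for chromosome 15, 7521 ± 64.4 CPM for chromosome 1 and 5061.5 ± 767 CPM for chromosome 4.

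These 115 pairs, the background for the split itself, were neighbours on 1 strand and within 25 kb, each gene with 10 counts or more on average. A gene can be in 2 such pairs. Their median share of the larger hairpin was 83.2% (quartiles 68.01 and 94.1), and 32.2% of them reached 90%, as the 3 miR-30 loci did. Of the other pairs, 8.70% were more unequal than Mir30d with Mir30b and 25.2% more than either of the remaining miR-30 loci. At 2 of the 3 miR-30 loci the smaller hairpin is a Mir30c gene. Mir30b, the smaller hairpin of the remaining locus, was not matched in the RefSeq table, so a shared arm could not be checked for it. Of 318 tested genes found in the RefSeq table (86.2% of those tested), 46 have an arm that lies whole in another hairpin, and their median was 38.04 CPM, against 107 CPM for the 272 that have none. Mir30c-2 and Mir30c-1, with means of 444 and 301 CPM, are above both medians. The part of unassigned reads in the split of these loci was not tested.

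**Figure D3:**
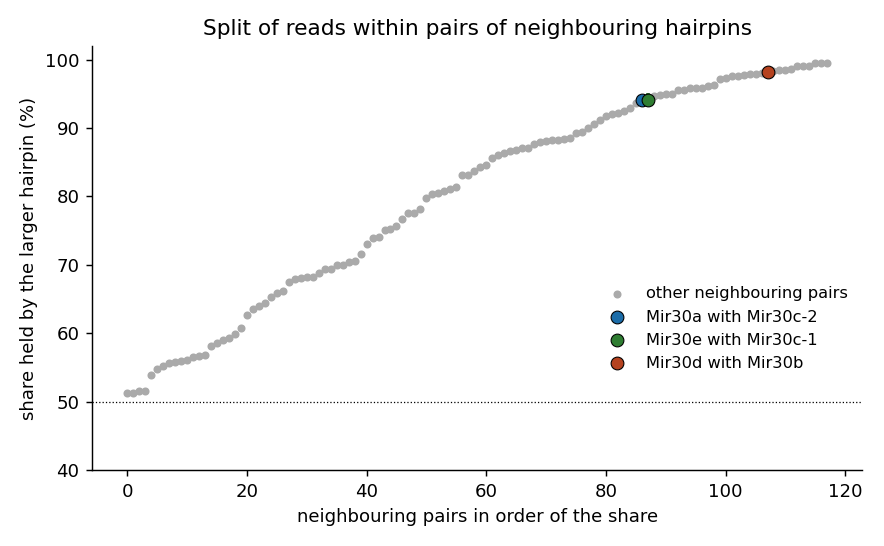
Share of assigned reads held by the larger hairpin of each pair of neighbouring miRNA genes (y axis, percent, from 40), mean of 2 libraries, with pairs in order of the share (x axis); the dotted line marks an even split. Mir30a with Mir30c-2 and Mir30e with Mir30c-1 lie at 94.1% and 94.2%, and Mir30d with Mir30b at 98.2%.

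Strand decided whether Mir30e was seen at all. The annotation holds Mir30f at the same 92 bases on the other strand, and miR-30f is shown with its seed in capitals because it does not carry the family seed.
mmu-miR-30f: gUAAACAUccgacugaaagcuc

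It starts at the G of the family seed, so its own seed reads UAAACAU, and its position overlaps that of miR-30e-3p by 19 bases on the opposite strand. Without regard to strand Mir30e had 0 counts in both libraries, against 12207 and 11906 on its own strand. Mir30f had 0 counts on its own strand in both libraries, which allows up to 1.06 and 1.32 CPM, and exactly the 12207 and 11906 reads of Mir30e in its column for the opposite strand. The other 5 members had identical counts with and without regard to strand and 0 on the opposite strand. In the unstranded column reads that fall in more than 1 gene numbered 347555 and 354974, and the sense reads of Mir30e equal 3.51% and 3.35% of them. In the unstranded column, 7.59% of the 369 genes tested below had 1% or less of what they had on their own strand.

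**Figure D4:**
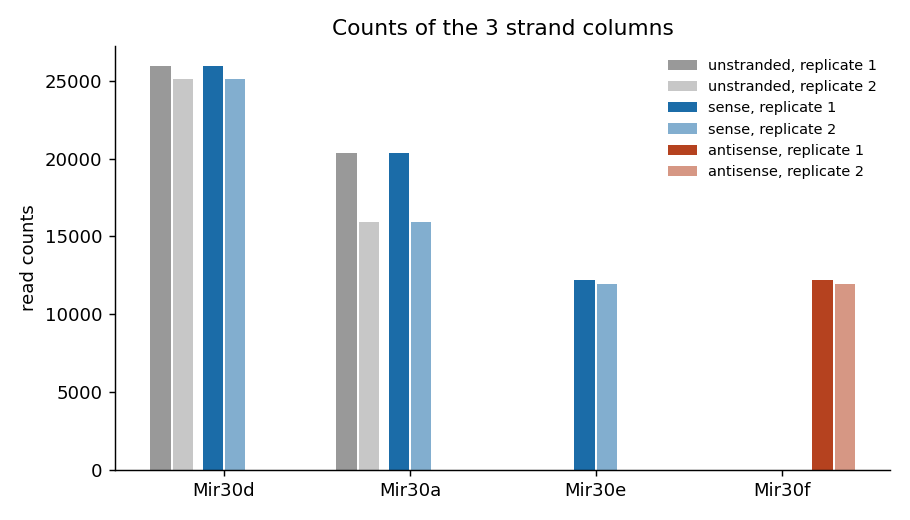
Read counts (y axis) of Mir30d, Mir30a, Mir30e and Mir30f (x axis) in the unstranded, sense and antisense columns; dark bars are replicate 1 and light bars replicate 2. Mir30d and Mir30a have equal unstranded and sense bars, Mir30e has a sense bar alone, and Mir30f shows the same reads as antisense.

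Between the libraries the miR-30 hairpins differed by less than 2-fold: 5 of 6 were higher in replicate 2 and Mir30a was slightly lower. Each gene's counts were set against the library totals in an exact two-sided binomial test, adjusted by Benjamini-Hochberg over the 369 genes whose counts averaged 10 or more. The test speaks of this pair of libraries and of counting error alone, because with 1 sample on each side no test over samples exists. No member passed an adjusted p of 0.05 with at least 2-fold, a rule that called 18.7% of all genes tested, 8.67% as higher in replicate 2 and 10% as higher in replicate 1. Without the fold rule all 6 passed by the binomial test with Benjamini-Hochberg adjustment, as did 62.6% of all genes. Of these 6, 5 were higher in replicate 2 (35.8% of all genes) and Mir30a was higher in replicate 1 (26.8% of all genes). By the unadjusted p, 6 of 6 members and 64.5% of all genes were under 0.05. Without any test, 5 of 6 members and 54.2% of all genes had the higher CPM in replicate 2.

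The 2 members with the largest ratios of replicate 2 to replicate 1 were among the 3 least abundant. Mir30c-1 had a CPM ratio of 1.73 (exact 95% interval 1.56 to 1.92, adjusted p = 1.79e-25 by the binomial test), and Mir30b a ratio of 1.52 (1.34 to 1.74). Mir30e followed with 1.21 (1.18 to 1.25), Mir30d with 1.21 (1.18 to 1.23) and Mir30c-2 with 1.18 (1.09 to 1.28). Mir30a was at 0.977 (0.957 to 0.997, adjusted p = 0.0451 by the same test). The counting intervals of the ratio did not overlap between Mir30a and Mir30c-2, Mir30d and Mir30b, or Mir30e and Mir30c-1, as in 53.04% of the 115 other neighbouring pairs.

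On the log2 scale the median ratio of the members was 0.27 and that of all tested genes 0.07. Regardless of sign, the median log2 difference was 0.27 among members and 0.45 among all tested genes. TMM and median-of-ratios scaling lowered every log2 ratio by 0.12 and 0.16, and neither turned the direction of a member. Relative to the median of all tested genes, which no scaling changes, the log2 ratio was 0.72 for Mir30c-1, 0.53 for Mir30b, 0.21 for Mir30e, 0.19 for Mir30d, 0.17 for Mir30c-2 and -0.11 for Mir30a. Divided by all reads, the ratios ran from 0.840 for Mir30a to 1.49 for Mir30c-1, with Mir30c-2, Mir30d and Mir30e at 1.02, 1.04 and 1.05. A total without the muscle, erythroid and leukocyte lists gave CPM ratios from 0.989 for Mir30a to 1.76 for Mir30c-1. The 3 muscle genes tested and Mir223 passed as higher in replicate 1, and Mir451a and Mir144 in replicate 2. Of the same lists Mir486, Mir150, Mir155 and Mir142 did not pass. Any part of muscle, erythroid or leukocyte cells in the miR-30 ratios was not tested beyond this rescaling.

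**Figure D5:**
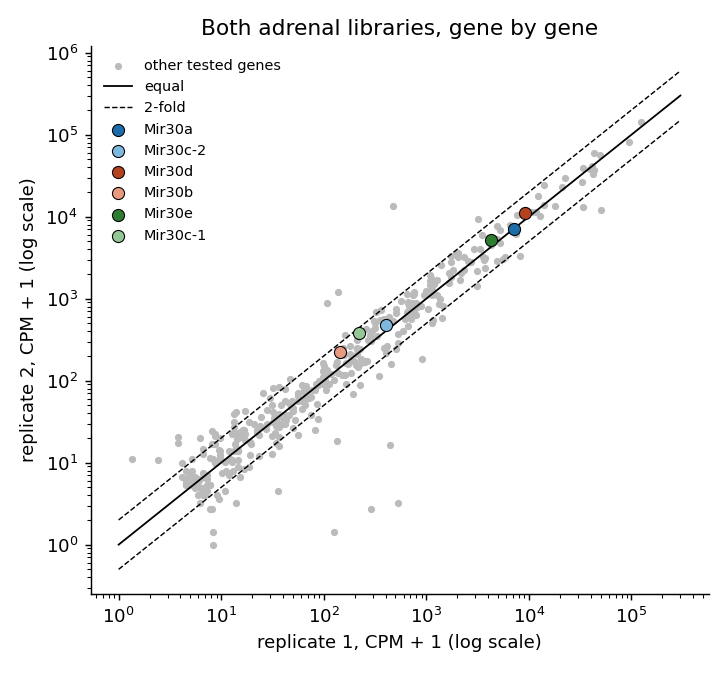
CPM plus 1 in replicate 2 (y axis) against replicate 1 (x axis), both on log scales, for 369 tested genes in grey and the 6 miR-30 hairpins in colour; the solid line marks equal values and the dashed lines 2-fold on the plotted scale. All 6 hairpins lie between the dashed lines, with Mir30c-1 and Mir30b nearest to the upper one.

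The miR-30 family was set beside other broadly expressed families with genes at several loci. Its share of counts was 2.28% ± 0.208, against 32.4% ± 0.708 for the 12 let-7 genes, 1.60% ± 0.356 for the 3 miR-26 genes, 0.855% ± 0.102 for the 4 miR-29 genes and 0.1996% ± 0.0346 for the 6 miR-181 genes. Mir98 was counted among the let-7 genes. The leading gene held 42.8% and 45.3% of the miR-30 counts in replicates 1 and 2. Mirlet7b held 38.0% and 44.6% of let-7, Mir181d 32.5% and 42.3% of miR-181, Mir29a 84.3% and 85.7% of miR-29 and Mir26b 97.6% and 99.9% of miR-26. The lowest detected members were Mirlet7a-2 (179 ± 32.7 CPM), Mir26a-2 (228 ± 301 CPM), Mir29b-2 (30.1 ± 4.18 CPM) and Mir181a-2 (13.2 ± 0.717 CPM). Only reads assigned to 1 gene are in these values. Family shares, leading shares and low members can therefore miss reads of an arm that lies whole in more than 1 hairpin. How far this shaped the comparison of families was not tested. All 6 miR-30 genes were detected, as were 12 of 12 let-7, 4 of 4 miR-29, 5 of 6 miR-181 and 2 of 3 miR-26 genes. The ratio of the family share in replicate 2 to replicate 1 was 1.14 (exact 95% interval 1.12 to 1.15) for miR-30. It was 1.18 (1.16 to 1.21) for miR-29, 1.28 (1.23 to 1.33) for miR-181, 0.970 (0.967 to 0.973) for let-7 and 0.729 (0.719 to 0.739) for miR-26. As a share of all reads, miR-30 was not higher in replicate 2, at 0.654% in replicate 1 and 0.640% in replicate 2.

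miRNAs known, like miR-30, to restrain matrix genes or epithelial-mesenchymal transition formed the comparison list: the miR-29 genes, the miR-200 family, Mir203 and Mir205. Of its 11 genes 10 were tested. None passed as higher in replicate 2 and 4 passed as higher in replicate 1, Mir203 (3312 and 1262 counts), Mir200b (99 and 8), Mir429 (37 and 5) and Mir200a (19 and 4), where 10% of all genes passed in that direction. Mir200b, Mir200a and Mir429 are neighbours on chromosome 4, with gaps of 695 and 908 bases, so they are not separate loci. The median log2 ratio of the list was -0.61, against 0.07 for all tested genes. Of its tested genes only Mir29a and Mir29c were higher in replicate 2, with CPM ratios of 1.20 and 1.11. Mir29a, which represses collagen genes, was the most abundant, with 6601 CPM in replicate 1 and 7950 CPM in replicate 2, close to Mir30a. Markers of kidney and gut epithelium, tissues rich in miR-30, were low: the 7 genes summed to 163 CPM in replicate 1 and 143 CPM in replicate 2, led by Mir194-2 at 40.5 and 37.3 CPM. None of the 6 tested passed. The liver miRNA Mir122 was at 3721 and 2358 CPM and did not pass.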

How the data were processed

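The deposited tables hold raw read counts per miRNA gene, 1 table per sample, in an unstranded, a sense and an antisense column; the sense column, with the larger total of the stranded ones, was used. Assembly mm10 and annotation GENCODE M21 are per the files deposited with the counts, and the aligner and counter are not given in the sources used here. Of all reads, 69.4% (replicate 1) and 73.7% (replicate 2) were unmapped, aligned to several places, outside the counted genes or in more than 1 of them. These reads stayed out of totals. A count is worth 0.352 and 0.439 CPM. Counts were scaled to CPM, tested in SciPy 1.17.1, and rescaled with edgeR 4.0.16 (TMM) and DESeq2 1.42.0. On data simulated with counting error alone over 369 genes, the test with the 2-fold rule called 99 of 100 genes changed 4-fold. It called 4 of 100 changed 1.5-fold and 1 of 169 unchanged. Spread between samples was not simulated, so these are not error rates for samples that vary beyond counting error. Genes named were the members, genes that overlap them, the nearest gene and both neighbours in level, family extremes and list leaders; seed sharers and list members that passed were added after their values were seen. The members and lists were chosen with earlier results of these data known.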

Additional observations from a re-analysis of the deposited data

Results flagged for a closer look

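Counts in the column for the opposite strand, which the comparisons of levels do not use, stood above what a count of 0 allows for Mir30f, at 12207 in replicate 1 and 11906 in replicate 2. They equal the sense counts of Mir30e. Reads aligned to several places, 2673681 and 2193599, are also outside the measure used and can include miR-30c-5p. A group of 2 samples is too small for a check of distant samples.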

How the results depend on the processing

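Of 29 recomputed values for the family, its loci and the count of members passing, 24 stayed close to the reported value, within 1 SD for levels and shares and 1.5 times for counts of members. With n = 2 each library lies within 1 SD of the mean by construction, so the values from a single library could not move. The Mir30a and Mir30d loci could not move with unstranded counts either, because their counts are the same there. Dividing by all reads gave a summed level of 6470 CPM for the 6 members and a share of 0.647%, because the total is larger. On that total the share was 0.654% in replicate 1 and 0.640% in replicate 2, so the family was no longer higher in replicate 2. Dividing by length gave 28481 CPM per 100 bases. With unstranded counts Mir30e held 0% of its locus. Without the fold rule 6 members passed. With a single library the sum ranged from 21365 to 24308 CPM and the share from 2.14% to 2.43%. For single members and the other pairs 35 of 49 alternatives stayed close, within 1 SD for the members. They include the members' values from a single library, which could not move. The percent of more even pairs has no SD. Among the 77 other pairs averaging 100 counts or more, 87.01% were more even than all 3 miR-30 loci, against 74.8% of 115. No paired analysis was possible because there is 1 group. Counting error was largest for Mir30b and Mir30c-1, the members with the fewest counts, yet their libraries differed by more than that error. The number of samples limits every SD.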
